A study of Homo sapiens with 12 samples.

Results

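The comparison described here was made between the shXPO7_5/4OHT libraries (replicates T, A and B) and the vector/4OHT libraries (replicates T, A and B) of an RNA-seq study of XPO7 knockdown, chosen by their sample labels. These are 6 of 12 libraries. The cells were IMR90 ER:RAS, a line of human lung fibroblasts with an estrogen receptor fusion of RAS that 4-hydroxytamoxifen (4OHT) switches on, which drives the cells into oncogene-induced senescence (OIS). Both groups carried ER:RAS, were at passage 13, received 100 nM 4OHT and were taken 5 days after induction, and the labels describe 7 days of growth in all with new medium on day 4. The shXPO7_5/4OHT cells carried an shRNA against XPO7, taken to be the shRNA that the study's text writes as shXPO7_X5. The induced controls are labelled only as induced, and the study's text describes them as vector cells. The other 6 libraries were vector without 4OHT and shXPO7_3/4OHT, which carries another shRNA against XPO7. The study's legends for other assays call the vector a nontargeting control, and the sources used here do not say whether it carries an shRNA. If it carries none, an effect of carrying an shRNA and an effect of losing XPO7 cannot be told apart within this comparison. Whether the 3 libraries per group were grown as separate cultures is not stated, and p-values then reflect how much the libraries vary, in part perhaps for technical reasons.

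XPO7 encodes exportin 7, a nuclear transport receptor of the karyopherin family that carries proteins both into and out of the nucleus. OIS is a stable growth arrest in which the CDK inhibitors p21CIP1 (CDKN1A) and p16INK4a (CDKN2A) hold back the E2F program, so that genes of S phase and mitosis fall. The arrested cells also secrete cytokines, growth factors and proteases, together called the senescence-associated secretory phenotype (SASP).

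The values are read counts per gene, given below as counts per 1000000 counted reads (CPM) after TMM scaling. Between 30623686 and 37472948 reads were counted in the shXPO7_5/4OHT libraries and between 28534141 and 49844320 in the vector/4OHT libraries. The fibroblast label held in both groups: a list of 12 fibroblast markers summed to 20000 to 22600 CPM with the shRNA and to 17700 to 19300 CPM in the controls. COL1A1 alone made up 8380 to 10100 against 6400 to 7600 CPM of these sums. Of the 12 markers, 7 had a log2 fold change above 0 and 5 below. All 7 leukocyte markers were under 1 CPM, with sums of 0.371 to 0.601 against 0.496 to 0.793 CPM. Epithelial markers, of which 5 of 9 were under 1 CPM, summed to 46.0 to 61.0 against 41.5 to 47.8 CPM. Endothelial markers, of which 5 of 7 were under 1 CPM, summed to 8.94 to 10.0 against 9.50 to 10.3 CPM. In RNA from whole cultures like these, fewer cells of a kind and less RNA per cell cannot be told apart.

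The 3 shXPO7_5/4OHT libraries were not alike in their base composition. For each library the log2 ratio of every gene to the vector/4OHT mean (for a vector/4OHT library, to the mean of the other 2) was set against the GC content of the gene's transcripts. Over 14864 genes (not independent of each other, since they share a library) the Spearman correlation was 0.59 in shXPO7_5/4OHT T, 0.12 in A and 0.76 in B. It was -0.17, -0.20 and 0.30 in vector/4OHT T, A and B. In replicate B the 10% of genes with the lowest GC content, 27.8% to 40.2%, had a median log2 ratio of -0.65, and the 10% with the highest, 61.7% to 74.5%, a median of 0.43. In T these medians were -0.53 and 0.17. In A they were -0.0079 and 0.058. Its correlation and its lowest median lay within the range of the controls and its highest median a little above them (-0.018 to 0.027), while T and B tilted the same way and further. Length, like GC content, was the median over all annotated transcripts of a gene, short ones included. It can differ from the length of the mRNA that the cells express (for XPO7 it was 883 bases). By this measure length went with little of the tilt, with correlations of -0.051, 0.016 and -0.061 in T, A and B. The correction used below removes from each library its smooth trend on GC content and length without knowledge of the groups. After it the GC correlations of the 3 shXPO7_5/4OHT libraries were 0.015, -0.015 and 0.015. The SD of the log2 ratio between replicates A and B went from 0.462 to 0.339. Between T and A it went from 0.425 to 0.366, and between T and B from 0.340 to 0.318. Among vector/4OHT pairs it was 0.299 to 0.332 before and 0.293 to 0.331 after correction, so pairs with replicate A stayed above the controls. The correction also takes out any change of the cells that itself follows GC content, and which share of the trend came from the cells was not tested.

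**Figure D1:**
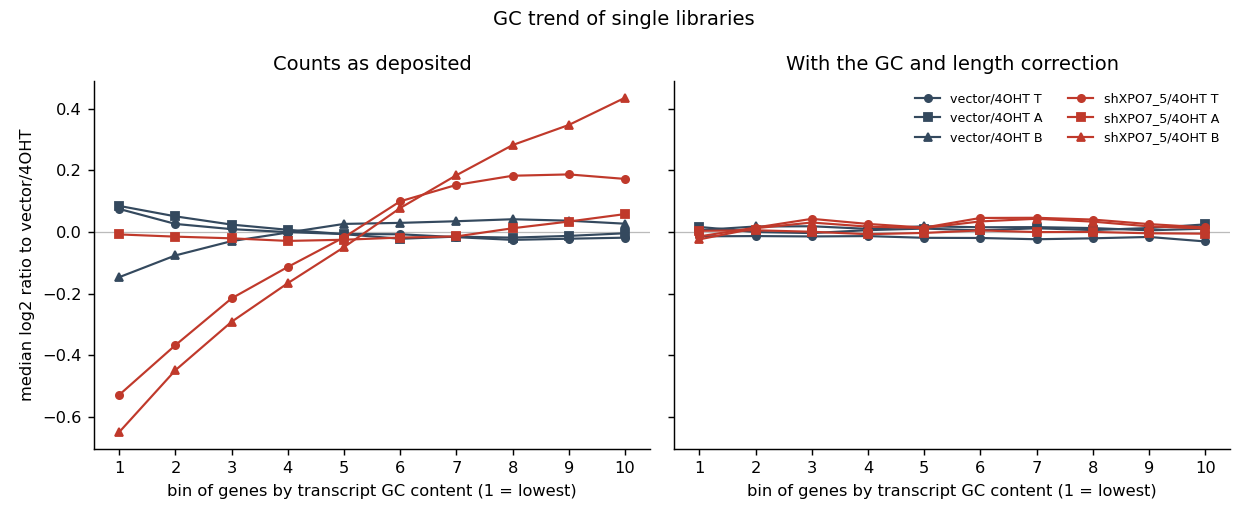
Median log2 ratio to vector/4OHT (vertical axis) of the genes in each of 10 equal bins by transcript GC content (horizontal axis, 1 = lowest), 1 line for each of the 6 libraries, before (left) and after (right) the correction for GC content and length. Before correction shXPO7_5/4OHT T and B run from -0.53 and -0.65 up to 0.17 and 0.43, while shXPO7_5/4OHT A runs from -0.0079 to 0.058.

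XPO7 (ENSG00000130227), the targeted gene, was reduced in every knockdown library. GENCODE release 29 places it on chromosome 8 at 21919671 to 22006585 (GRCh38). It measured 50.8, 54.0 and 51.8 CPM in shXPO7_5/4OHT T, A and B, against 127, 144 and 139 CPM in vector/4OHT T, A and B. The groups did not overlap, and the knockdown libraries lay close together, replicate A included. The mean was 52.2 ± 1.62 CPM (SD, n = 3), or 38.2% of the control mean of 137 ± 8.81 CPM (SD, n = 3). The log2 fold change was -1.39 (standard error 0.072, edgeR adjusted p = 3.27e-06) and, corrected for GC content and length, -1.23 (standard error 0.076, edgeR adjusted p = 1.85e-05). An exact two-sided permutation test on log2 CPM gave p = 0.1, the smallest that 3 libraries against 3 allow.

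Against vector/4OHT, 90 of 15284 genes tested were called at an adjusted p under 0.05 in edgeR's quasi-likelihood test, which is 0.589% of the genes tested. Of these, 73 (0.478%) were higher and 17 (0.111%) lower with the shRNA. At an unadjusted p under 0.05 there were 3302 genes, 21.6% of those tested, 1884 of them higher. The changes of the called genes were modest, with a median log2 fold change of 0.63 for those higher and -0.65 for those lower, and 8 passed a fold change of 1 on the log2 scale (7 higher, and XPO7 lower). All 90 had no overlap between the 3 shXPO7_5/4OHT and the 3 vector/4OHT libraries, which was the case for 26.8% of all genes tested. Protein-coding genes made up 87 of the 90 (96.7%), against 86.7% of the genes tested.

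The called genes followed the tilt in base composition. Median transcript GC content was 58.9% for the genes called higher and 45.2% for those called lower, against 49.4% for all genes tested, and 44 of the 90 (48.9%) lay in the upper 2 of 10 equal bins by GC content. Over all genes the Spearman correlation of the fold change with GC content was 0.67. With the correction it was 0.023, and 431 genes were called (2.82% of those tested), 315 higher (2.06%) and 116 lower (0.759%). Of the 90 genes, 82 were called again with the same direction and 8 were lost, 5 of them higher. The median GC content of the corrected calls was 54.0% for higher and 51.0% for lower genes. Among the 349 genes called only with correction, 247 were higher and 102 lower, 62 had overlapping libraries before correction and 16 changed sign.

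**Figure D2:**
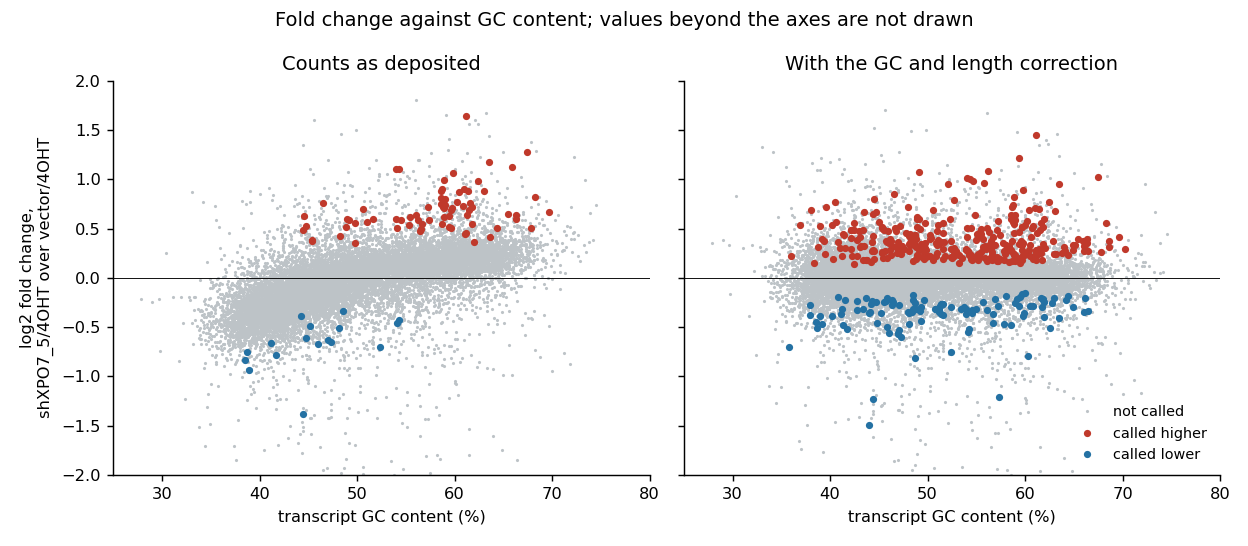
Log2 fold change of shXPO7_5/4OHT over vector/4OHT (vertical axis) against transcript GC content in percent (horizontal axis) for each gene tested, before (left) and after (right) correction. Grey points were not called, red points were called higher and blue points lower. The cloud rises with GC content on the left (correlation 0.67) and is level on the right (0.023).

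Single libraries set how many genes were called. Without shXPO7_5/4OHT A, the library with little tilt, 3634 genes were called, among them all 90. Without shXPO7_5/4OHT T or B the counts were 2 and 7, and without vector/4OHT T, A or B they were 2, 2 and 14. The 2 genes called in each of these 6 fits were XPO7 and SUSD2. With the correction, the counts were 1185 without shXPO7_5/4OHT A and 163 to 216 with any other of the 6 libraries left out.

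**Figure D3:**
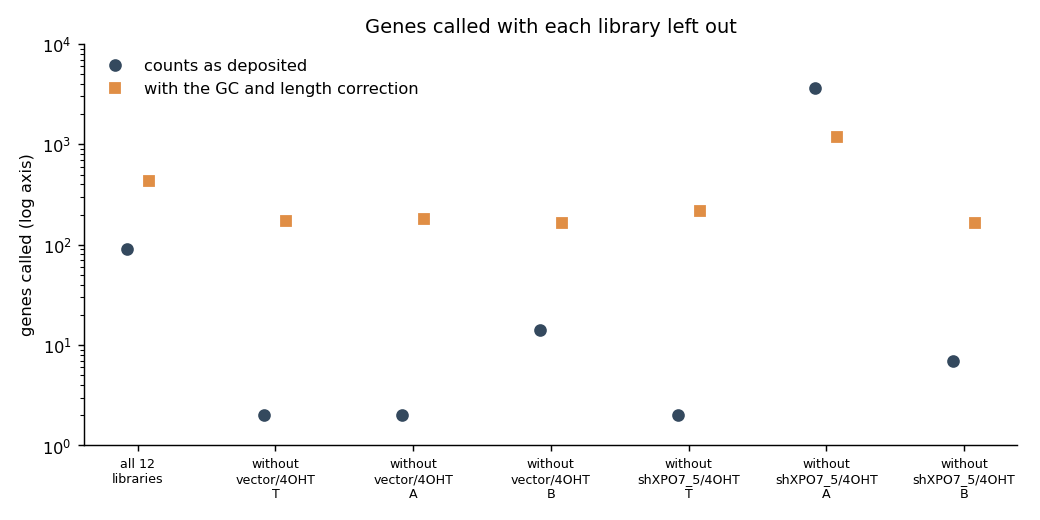
Number of genes called (vertical axis, log scale) with all 12 libraries and with each of the 6 libraries compared left out in turn, before (circles) and after (squares) the correction. Uncorrected counts run from 2 to 3634 and corrected counts from 163 to 1185, the highest of each being without shXPO7_5/4OHT A.

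The genes named next are the called genes of largest rise whose mean log2 CPM reached 2. Below that level, and named after their values were seen, STRA6, a retinol transporter, had a larger log2 fold change of 1.65 and NKD2, an inhibitor of Wnt signaling, one of 1.28. SUSD2, a sushi-domain membrane protein, stood at 10.3, 8.46 and 10.2 CPM in shXPO7_5/4OHT T, A and B against 4.07, 4.22 and 4.46 CPM in the controls. Every knockdown library was well above the highest control, and the log2 fold change was 1.180 (standard error 0.12, edgeR adjusted p = 0.00227). ANO1, a calcium-activated chloride channel, was at 12.5, 10.1 and 12.8 CPM against 5.06, 5.67 and 5.67 CPM. Its groups were also well apart (log2 fold change 1.11, standard error 0.13, edgeR adjusted p = 0.0104). MMP11, the secreted protease stromelysin 3, was at 38.4, 39.0 and 47.2 CPM against 19.2, 21.7 and 22.2 CPM. The lowest knockdown library exceeded the highest control (log2 fold change 0.98, standard error 0.13, edgeR adjusted p = 0.0115).

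INMT, a methyltransferase that acts on indole amines, was at 13.7, 12.2 and 14.0 CPM against 7.05, 6.24 and 6.72 CPM. It overlaps a readthrough transcript, so its counts are uncertain. SYT7, a calcium sensor of lysosome exocytosis, was at 21.2, 19.2 and 23.5 CPM against 11.3, 11.2 and 12.04 CPM. Log2 fold changes were 0.99 for INMT and 0.89 for SYT7, both with edgeR adjusted p = 0.012. Replicate A was the lowest of the 3 knockdown libraries for SUSD2, ANO1, INMT and SYT7, and it still lay above every control. The other genes named above this level were KCNH6, a potassium channel (log2 fold change 0.90), ZBTB46, a zinc finger transcription factor (0.88), KIF18B, a mitotic kinesin (0.87), PITX1, a homeodomain transcription factor (0.82), and TROAP, a spindle-associated protein (0.81). All 10 of these genes were called with the correction as well, with log2 fold changes of 1.01 for ANO1, 0.95 for SUSD2, 0.82 for INMT, 0.77 for MMP11, 0.72 for ZBTB46, 0.71 for KCNH6, 0.70 for SYT7, 0.69 for KIF18B, 0.64 for TROAP and 0.56 for PITX1. PITX1, with a GC content of 68.3%, was called at 27.7, 24.3 and 35.1 CPM against 16.2, 17.8 and 15.4 CPM, replicates A and B of the knockdown being the lowest and highest.

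After XPO7, the called gene with the largest fall among those whose mean log2 CPM reached 2 was PTGS2. It encodes cyclooxygenase 2, the inducible enzyme of prostaglandin synthesis. PTGS2 was at 23.6, 28.1 and 20.4 CPM in shXPO7_5/4OHT T, A and B and at 44.6, 46.2 and 37.8 CPM in vector/4OHT T, A and B. The highest knockdown library was below the lowest control. The log2 fold change was -0.83 (standard error 0.12, edgeR adjusted p = 0.0132), and with the correction it was -0.45 (standard error 0.085, edgeR adjusted p = 0.0152). PTGS2 transcripts have a GC content of 38.5%, in the lowest of the 10 bins. FAM217B, a gene of little known function, was at 13.3, 17.1 and 12.04 CPM against 25.7, 25.3 and 22.3 CPM. Its libraries did not overlap either (log2 fold change -0.79, corrected -0.52).

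IL13RA2, a decoy receptor for interleukin 13, was at 5.29, 7.04 and 4.80 CPM against 9.51, 10.2 and 9.20 CPM. Its log2 fold change of -0.75 (edgeR adjusted p = 0.032) went to -0.39 with the correction (edgeR adjusted p = 0.069), so that call was lost. NR4A2, an orphan nuclear receptor, was at 3.60, 3.78 and 3.41 CPM against 6.20, 6.03 and 5.39 CPM. All 3 knockdown libraries were nearly level, and the fall was -0.70 before and -0.75 after the correction. OSTN-AS1, an antisense RNA whose counts are uncertain because the strand setting of the counting is not given in the sources used here, had a log2 fold change of -0.67 (corrected -0.56).

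**Figure D4:**
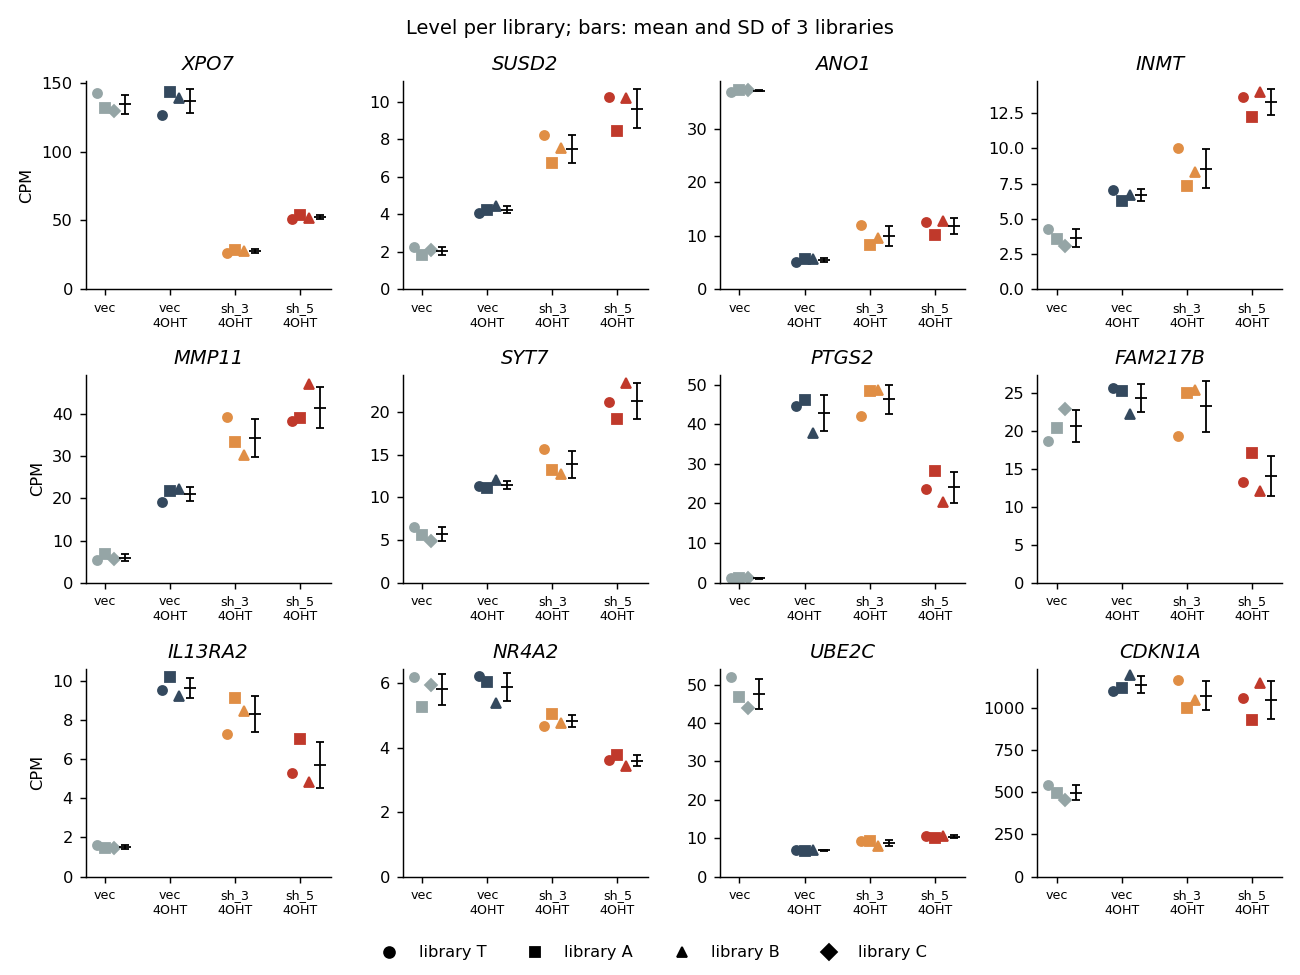
CPM (vertical axes, from 0) of 12 named genes in each library of vector (vec), vector/4OHT, shXPO7_3/4OHT (sh_3) and shXPO7_5/4OHT (sh_5), with the mean and SD of the 3 libraries of a group beside the points. XPO7 in shXPO7_5/4OHT (50.8 to 54.0 CPM) lies between shXPO7_3/4OHT and the controls, and PTGS2 (20.4 to 28.1 CPM) lies below both other groups with 4OHT.

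Promoters of the genes tested were searched for the E-box forms CAGCTG and CACCTG on both strands (CACCTG reads CAGGTG on the other). These are bound by the E protein TCF3, which the study followed. The windows were those of RefSeq (GRCh38.p14), 250 bases before to 50 after a start site, with the first listed window used for a gene with several, and 11113 of the genes tested matched by symbol. Either form was in 31.0% of these windows. It was in 17 of 52 windows of genes called higher (32.7%) and in 8 of 11 of genes called lower (72.7%), so the lower genes rest on few windows. CAGCTG alone was in 16.8% of all, 11 of 52 (21.2%) and 5 of 11 (45.5%), and CACCTG in 17.4%, 10 of 52 (19.2%) and 3 of 11 (27.3%). A match describes letters and no binding. The 3 windows shown were picked from the called genes of largest change named above, XPO7 set aside. INMT (chr7:30751885-30752184, + strand) and FAM217B (chr20:59933529-59933828, + strand) had the largest rise and largest fall with a match. PTGS2 (chr1:186680374-186680673, - strand) had the largest fall without one. Each match is in capitals.
INMT: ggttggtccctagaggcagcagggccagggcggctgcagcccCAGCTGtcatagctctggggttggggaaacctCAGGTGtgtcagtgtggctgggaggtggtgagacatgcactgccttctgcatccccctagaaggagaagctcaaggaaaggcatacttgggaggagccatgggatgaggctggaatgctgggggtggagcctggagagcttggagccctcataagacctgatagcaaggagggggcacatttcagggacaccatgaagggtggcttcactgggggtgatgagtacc
FAM217B: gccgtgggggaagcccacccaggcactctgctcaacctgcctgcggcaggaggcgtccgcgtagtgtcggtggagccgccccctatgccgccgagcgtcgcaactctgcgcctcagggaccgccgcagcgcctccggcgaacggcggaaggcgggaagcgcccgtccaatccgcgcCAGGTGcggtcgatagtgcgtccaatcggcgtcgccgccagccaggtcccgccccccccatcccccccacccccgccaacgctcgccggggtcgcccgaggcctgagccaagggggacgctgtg
PTGS2: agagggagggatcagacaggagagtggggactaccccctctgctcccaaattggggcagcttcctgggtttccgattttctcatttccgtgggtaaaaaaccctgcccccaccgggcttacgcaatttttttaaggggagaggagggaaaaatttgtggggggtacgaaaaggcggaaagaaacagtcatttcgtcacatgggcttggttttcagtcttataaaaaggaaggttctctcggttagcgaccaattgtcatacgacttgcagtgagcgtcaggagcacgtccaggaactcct
The 3 windows differ in composition, with 59.7% GC in that of INMT, 74.7% in that of FAM217B and 50.7% in that of PTGS2.

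The mitotic list held 3 calls before the correction and 11 with it, while higher calls over all genes tested went from 73 (0.478%) to 315 (2.06%). Lower calls over all genes tested went from 17 (0.111%) to 116 (0.759%). These shares stand beside the calls of every list below. Of 54 genes of the G2/M list, 3 were called higher and none lower: UBE2C, the E2 enzyme of the anaphase-promoting complex, AURKB, the kinase of the chromosomal passenger complex, and CDCA8, a subunit of the same complex. UBE2C was at 10.7, 9.94 and 10.6 CPM against 6.97, 6.66 and 6.92 CPM, AURKB at 5.32, 5.07 and 5.11 against 3.17, 3.62 and 3.23 CPM, and CDCA8 at 9.97, 8.88 and 8.79 against 5.68, 6.56 and 6.42 CPM. None of these overlapped the controls, and all 3 knockdown libraries were at nearly the same level. Log2 fold changes were 0.60, 0.63 and 0.57.

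The median log2 fold change of the 54 genes was 0.035, against 0.0058 for all genes tested, and 29 lay above 0. The list is poor in GC, with a median of 43.8%. Its median was -0.0068 in shXPO7_5/4OHT T, 0.22 in A and -0.086 in B, so only the library with little tilt stood clearly above 0. With the correction, the medians were 0.19, 0.23 and 0.18, all 3 libraries lying together. The corrected list median was 0.21, 42 of 54 genes were above 0 (53.1% of all genes tested were), and 11 were called higher and none lower. The added calls included MKI67, the Ki-67 antigen (corrected log2 fold change 0.40), BIRC5, survivin (0.59), BUB1, a checkpoint kinase (0.48), CDC20, the activator of the anaphase-promoting complex (0.49), and KIF2C, a kinesin that shortens microtubules (0.40). The levels of MKI67 were 35.3, 38.9 and 32.2 CPM against 26.8, 30.3 and 25.5 CPM.

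The S phase list held fewer calls. Of its 42 genes tested, RRM2, the regulated subunit of ribonucleotide reductase, was called higher, at 43.0, 39.5 and 37.6 CPM against 30.1, 30.0 and 31.5 CPM (log2 fold change 0.39). The list median was -0.026, with -0.046, 0.087 and -0.12 in T, A and B. Corrected, it was 0.11, with 0.12, 0.11 and 0.14 in the libraries. With the correction 5 genes were called, all higher (2.06% of all genes tested were): RRM2, MCM7, DTL, CENPU and CDC45. Several further cell cycle genes outside both lists were among the 73 called higher and are named here after their values were seen. FOXM1, a transcription factor of the mitotic program, had a log2 fold change of 0.59, MYBL2, which acts with it, 0.77, PLK1, a mitotic kinase, 0.72, and TK1, thymidine kinase, 0.69. FOXM1 was at 18.7, 17.8 and 18.3 CPM against 11.3, 13.2 and 11.98 CPM, and at 0.50 after the correction. In vector/4OHT against vector, a comparison that shares the same controls, the G2/M list had a median log2 fold change of -2.54.

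No p53 target was called before correction. Of 38 p53 targets, 27 lay below 0, with a median log2 fold change of -0.16, while 50.7% of all genes tested lay above 0. The medians of the p53 targets in T, A and B were -0.13, -0.078 and -0.17. With the correction the median was -0.10, and 5 were called lower and 1 higher. Over all genes tested, 0.759% were called lower and 2.06% higher with it. CDKN1A, which encodes p21CIP1, was at 1058, 924 and 1148 CPM in shXPO7_5/4OHT T, A and B against 1101, 1116 and 1194 CPM. The groups overlapped, replicate A being the lowest. The log2 difference was -0.12 (95% interval -0.33 to 0.079, edgeR adjusted p = 0.385), and -0.29 with the correction (standard error 0.035, edgeR adjusted p = 0.00135), so the call rests on that correction. The death receptors TNFRSF10B and TNFRSF10A (corrected -0.30 and -0.32), MDM2, a ubiquitin ligase (-0.20), and CYFIP2 (-0.32) fell in the same fit, and PLK2, a polo-like kinase, rose (0.30).

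Some other named genes were not called. CDKN2A was at 62.3, 59.4 and 77.1 CPM against 51.5, 52.9 and 49.2 CPM (0.37, edgeR adjusted p = 0.123, and 0.17 corrected). It did not overlap the controls, as was the case for 26.8% of all genes tested. The count cannot tell the p16INK4a and ARF transcripts of CDKN2A apart. LMNB1, lamin B1, had 0.22 (interval 0.032 to 0.40), and TCF3 0.28 (interval 0.080 to 0.48), which was 0.080 corrected. Among 12 CDK inhibitors and D cyclins none was called before correction, and CDKN1A and CCND2, cyclin D2 (corrected -0.35), were called lower after it.

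The TCF3 family list of 12 E proteins, ID and related factors had no call and a median of 0.24. Of the 12, 10 lay above 0 (50.7% of all genes tested did). Corrected, the median was 0.21, with 0.11, 0.28 and 0.12 in T, A and B. HES1, a repressor induced by Notch, was then called, at 22.0, 20.7 and 22.5 CPM against 17.7, 16.3 and 16.8 CPM (corrected log2 fold change 0.34). TWIST1 had 0.46 and HEYL 1.66, neither called.

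The SASP list was evenly split. Of 44 genes tested, 22 lay above and 22 below 0, and the median log2 fold change was 0.00064. SERPINB2, a plasminogen activator inhibitor, was the only call, at 272, 245 and 245 CPM against 189, 205 and 193 CPM (log2 fold change 0.38, edgeR adjusted p = 0.0406). The corrected median was -0.0037, and 2 genes were called each way: SERPINB2 (0.50) and IGFBP7, a secreted binding protein (0.95), higher, and ICAM1, an adhesion receptor (-0.25), and ANGPTL4, a lipase inhibitor (-0.41), lower. IGFBP7 varied widely, at 26.4, 29.9 and 45.7 CPM against 18.8, 19.2 and 13.3 CPM. The 18 NF-kB feedback genes gave no call in either fit, with medians of 0.077 and -0.0022.

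Interferon-stimulated genes lay mostly above 0, in 27 of 34 (50.7% of all genes tested did), but none was called. Their median log2 fold change was 0.23, with 0.22, 0.24 and 0.15 in T, A and B, and 0.25 corrected. IFITM3, a membrane protein that restricts virus entry, was called with the correction (0.22), at 140, 122 and 164 CPM against 104, 111 and 106 CPM. Its near-identical paralogs make its counts uncertain. OAS3, an RNA sensor, had 0.48 (corrected 0.36) and was not called. Of 17 MAPK output genes none was called before correction (median 0.079), and 3 were higher and 1 lower after it: ETV4 (0.38), EGR1 (0.21) and IER3 (0.16), higher, and EPHA4, an ephrin receptor (-0.36), lower. ETV4, an ETS factor, was at 60.9, 54.5 and 72.2 CPM against 40.7, 43.0 and 44.4 CPM.

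Matrix genes lay mostly above 0, and nearer to it with the correction. The 22 collagens had a median log2 fold change of 0.20, 19 of them above 0 (50.7% of all genes tested were), and 0.093 corrected. None was called before, and 3 after it: COL3A1 (0.32), COL5A3 (0.36) and COL7A1, the anchoring fibril collagen (0.38). COL7A1 was at 358, 328 and 365 CPM against 261, 221 and 216 CPM, with no overlap (26.8% of all genes tested had none). The 30 matrix glycoproteins and crosslinkers went from a median of 0.13 with no call to 0.064 with the correction. Then 5 were called higher (2.06% of all genes tested were): LOX, the collagen crosslinking oxidase (0.31), TGFBI (0.29), BGN, biglycan (0.28), FBLN1, fibulin 1 (0.28), and CCN1 (0.17). LOX shows what the correction does to a transcript poor in GC (41.0%). Its deposited levels were 310, 382 and 287 CPM against 333, 327 and 313 CPM, overlapping, with replicate A alone above the controls.

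Of 19 TGF-beta targets, LRRC32, which anchors latent TGF-beta at the cell surface, was called, at 39.6, 35.2 and 41.5 CPM against 22.1, 23.3 and 21.4 CPM (log2 fold change 0.80, corrected 0.64). TGFB1, TGFBI and NOX4 joined it in the corrected fit, 4 calls in all (2.06% of all genes tested were called higher). The list median went from 0.16 to 0.047. Among 15 smooth-muscle contractile genes there was no call, with medians of 0.21 and 0.082. PDGFRB, the fibroblast marker that was called, encodes a PDGF receptor and stood at 347, 291 and 340 CPM against 218, 213 and 222 CPM (log2 fold change 0.58, corrected 0.44).

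Lists of metabolism and protein synthesis were also above 0. The 23 genes of cholesterol synthesis had a median of 0.18, with no call, and 0.20 corrected. With the correction 5 were called higher (2.06% of all genes tested were), among them INSIG1, the sterol sensor partner (0.33), MVK (0.33), EBP (0.32) and FDFT1 (0.31). The corrected medians of T, A and B were 0.16, 0.17 and 0.18, close together. INSIG1 was at 127, 130 and 120 CPM against 105, 106 and 109 CPM. Of 25 genes of the ATF4 and unfolded protein response, CHAC1, which breaks down glutathione, was called (65.2, 64.1 and 82.7 CPM against 45.6, 50.1 and 49.6 CPM, log2 fold change 0.55), and ATF3, PDIA4 and MANF joined it with the correction.

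Ribosomal and mitochondrial lists differed between libraries. Of 76 cytosolic ribosomal proteins, 69 were above 0 (50.7% of all genes tested were). Their median was 0.17, with 0.19, 0.023 and 0.28 in T, A and B. The correction left this difference, at 0.17, 0.037 and 0.21, and 2 genes (RPL38 and RPS16) were then called. Processed pseudogenes make the counts of these genes uncertain. The 13 mitochondrially encoded mRNAs had a median of 0.086, which was 0.24 corrected, with 0.37, 0.021 and 0.29 in the libraries. MT-ATP8, a subunit of ATP synthase that overlaps another gene and is uncertain for that reason, was called with the correction (0.72). It was at 499, 425 and 437 CPM against 389, 379 and 321 CPM. For 56 nuclear-encoded respiratory chain genes the median was 0.092 (corrected 0.076, 2 called higher).

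Among the remaining lists, 33 nuclear transport genes other than the target gave no call in either fit, with medians of -0.048 and -0.0018. KPNB1, importin beta, had -0.22 (edgeR adjusted p = 0.111). The 13 genes of the RNA interference machinery gave none either, with medians of 0.036 and 0.061. The 17 NRF2 targets had a median of 0.22 (corrected 0.12), with PIR called after correction (0.34), and 29 lysosomal genes had 0.049 (corrected 0.014), with GAA and SGSH then called lower. Of 16 genes of prostaglandin synthesis and receptors, PTGS2 was the only call in both fits. Of 6 anoctamins tested ANO1 was, and of 2 globins tested CYGB, cytoglobin, at 63.4, 54.3 and 68.3 CPM against 37.1, 37.7 and 37.5 CPM (log2 fold change 0.73, corrected 0.53). Lists were chosen with earlier results of these data known, so calls in lists this small do not describe a family.

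**Figure D5:**
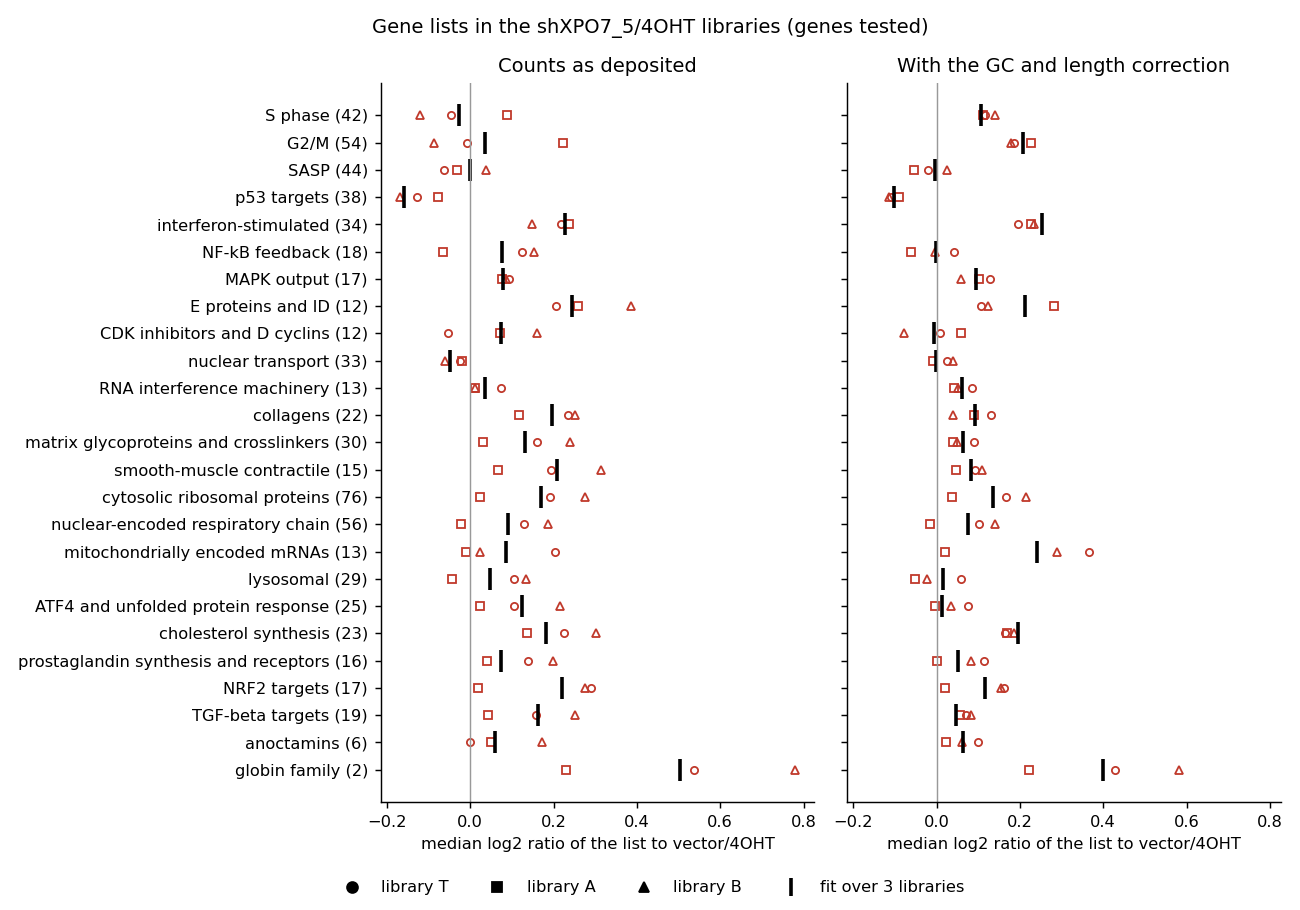
Median log2 ratio to vector/4OHT (horizontal axis) of each gene list (number of genes tested in brackets) in shXPO7_5/4OHT T, A and B (open symbols) and in the fit over the 3 libraries (black bars), before (left) and after (right) correction. The G2/M medians of the libraries run from -0.086 to 0.22 on the left and from 0.18 to 0.23 on the right.

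The correction took out some genes and brought in others. Besides IL13RA2, the named genes it took out were ZFP36L1, an RNA-binding decay factor (0.37 to 0.18), CXXC5 (0.42 to 0.21), SNCB, beta-synuclein (0.51 to 0.28), and ETF1P1, a pseudogene whose counts are uncertain (-0.94 to -0.59). Transcripts of the first 3 had a GC content of 62.0% to 64.3%, and those of ETF1P1 38.9%. The largest gains were IGFBP7 and MT-ATP8, given above, with HHIP, an inhibitor of Hedgehog signaling (0.67), IL16, a chemoattractant cytokine (0.64), and PPM1H, a phosphatase (0.60). Those lower were FGF7, keratinocyte growth factor (-0.70), WNT16, a Wnt ligand (-0.56), ADCY7, an adenylyl cyclase (-0.51), CD58, an adhesion ligand (-0.51), and TGFBR3, betaglycan (-0.50). FGF7 was at 4.72, 8.70 and 3.63 CPM against 12.5, 12.97 and 11.2 CPM. Its knockdown libraries were all below the controls but spread widely, with replicate A highest.

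The shXPO7_3/4OHT group shares the vector/4OHT controls, so its values stand beside those above as values only. Log2 fold changes with shXPO7_3 and shXPO7_5 were -2.30 and -1.39 for XPO7, 0.82 and 1.180 for SUSD2, 0.86 and 1.11 for ANO1, 0.70 and 0.98 for MMP11, 0.36 and 0.99 for INMT, and 0.27 and 0.89 for SYT7. For PTGS2 they were 0.11 and -0.83, and for FAM217B -0.068 and -0.79. The GC correlations of shXPO7_3/4OHT T, A and B were 0.56, -0.34 and -0.23, so the trend differed within that group too. Compared directly, shXPO7_5/4OHT and shXPO7_3/4OHT differed in 2 genes (0.0131% of those tested), while 1819 genes (11.9%) had an unadjusted p under 0.05. XPO7 was higher with shXPO7_5, at 50.8, 54.0 and 51.8 CPM against 26.4, 28.7 and 27.9 CPM (difference of 0.92 on the log2 scale, standard error 0.072, edgeR adjusted p = 0.000387). PTGS2 was lower with shXPO7_5, the shXPO7_3/4OHT libraries being at 42.1, 48.3 and 48.6 CPM (difference of -0.95, standard error 0.12, edgeR adjusted p = 0.0246). The PTGS2 call was lost without shXPO7_3/4OHT A or B or shXPO7_5/4OHT T or B (edgeR adjusted p of 0.132 to 0.297), with differences of -0.83 to -0.93, and that of XPO7 was kept in each of these fits.

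With the correction, 23 genes (0.15%) differed between the shRNAs, 16 of them higher with shXPO7_5. The differences were 1.04 for XPO7, 0.49 for INMT, 0.46 for SYT7, -0.60 for PTGS2 and -0.48 for FAM217B. SUSD2, ANO1 and MMP11 were not among them, with corrected differences of 0.18 (95% confidence interval -0.0062 to 0.37), 0.16 (-0.041 to 0.37) and 0.094 (-0.10 to 0.29). Their uncorrected differences were 0.36 (95% confidence interval 0.12 to 0.60), 0.25 (-0.028 to 0.53) and 0.28 (0.0070 to 0.55). Of the others, named after their values were seen, CEMIP, a hyaluronan-degrading protein, differed by 0.83 and L1CAM, an adhesion molecule, by 0.60. Against vector/4OHT, with the same correction, CEMIP and L1CAM had log2 fold changes of -0.022 and -0.014 with shXPO7_5 and of -0.85 and -0.62 with shXPO7_3.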

How the data were processed

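RNA-seq libraries of IMR90 ER:RAS cells were grouped by their labels. The deposited values are raw read counts for each gene, made by the authors on hg19/GRCh37 with CASAVA 1.8.4, TopHat2 2.0.11 and featureCounts 1.18.0 per the submitters' processing notes. The mRNA kit was stranded, while gene annotation, strand setting and handling of multiply matching reads are items not given in the sources used here. In all, 62069 genes were counted, and 92 ERCC spike-in entries, 0 in every library, were left out. Symbols were matched for 38397 genes, which hold 99.41% of the counts.

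Counts of all 12 libraries (4 groups, no covariates) were fitted with edgeR 4.0.16 in R 4.3.3 (filterByExpr, TMM, quasi-likelihood test, Benjamini-Hochberg over 15284 genes, threshold 0.05). The correction fitted, per library, a spline with 5 degrees of freedom of the log2 CPM, less its average over the 12 libraries, on GC content and length of GENCODE release 29 transcripts (GRCh38, joined by Ensembl identifier, 97.3% of genes tested) and entered it as an offset. Both measures were unweighted medians over the transcripts of a gene. Lists have no test: counts and medians are given. The fits were tested on simulated data.

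Named genes were XPO7, up to 10 higher and 6 lower called genes of largest change (average log2 CPM of at least 2, no overlap), called list members and up to 3 members per list with the smallest p, 7 further genes, and up to 5 genes lost and, each way, gained by the correction. A few of these are not reported here. Comparisons, lists and rules were chosen with earlier results of these data known.

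Within groups, library pairs differed by more than sampling noise (chi-square per gene 4.63 to 61.7), so none was treated as the same library sequenced again. These values cannot tell separate cultures from separate libraries of the same RNA, since library preparation also adds differences. Alternatives used limma 3.58.1, DESeq2 1.42.0 and sva 3.50.0, other scaling and filters, blocks and left-out libraries.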

Additional observations from a re-analysis of the deposited data

Results flagged for a closer look

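The shRNAs differed from each other in 2 genes by edgeR's quasi-likelihood test of the difference itself. XPO7 was less reduced with shXPO7_5 than with shXPO7_3, by 0.92 on the log2 scale (edgeR adjusted p = 0.000387, higher in 3 of 3 libraries). PTGS2 was lower with shXPO7_5 than with shXPO7_3, by a log2 difference of -0.95 (edgeR adjusted p = 0.0246), and the 3 shXPO7_5/4OHT libraries lay below the 3 shXPO7_3/4OHT libraries. The GC content trend of shXPO7_5/4OHT T and B moves with this gene, whose transcripts are poor in GC, and the share of the trend in the difference was not tested. The difference was -0.60 with the correction (edgeR adjusted p = 0.0195), and replicate A, with little trend, was at 28.1 CPM against 42.1 to 48.6 CPM.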

How the results depend on the processing

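The 90 genes called in shXPO7_5/4OHT became 217 with no filter, 149 with the replicate letter as a block, 10 with the 2 groups alone, 426 with DESeq2, 6999 with voom and quality weights (46.9% higher, against 81.1% of the 90), 431 with the GC and length correction, 766 with that correction and the block, 2234 with 1 surrogate variable (38.7% higher) and 8 at a log2 fold change of at least 1. Leaving out a library gave 2 to 3634 calls, the highest without shXPO7_5/4OHT A, and with the correction 172, 181 and 163 without vector/4OHT T, A and B and 216, 1185 and 163 without shXPO7_5/4OHT T, A and B. Leaving out a library of shXPO7_3/4OHT, added after the data were seen, gave 181 (T), 64 (A) and 60 (B). The XPO7 log2 fold change kept its call and direction in each fit. The direct count of 2 in edgeR became 0 with the 2 groups alone (820 genes at an unadjusted p under 0.05, edgeR adjusted p of 0.114 for XPO7 and 0.533 for PTGS2), 27 with DESeq2, 7999 with voom and quality weights, 23 with the correction, and 1 to 4 with a library left out, the highest without shXPO7_3/4OHT T. The cause of these shifts was not tested.

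Of the 90 genes, 88 kept their sign in all 17 alternatives. The other 2, STRA6 and NKD2, kept it in 16 and were too low to pass the filter of 1 CPM in 6 libraries. RLE factors gave 127 calls, upper-quartile factors 67 and a filter of 1 CPM in 6 libraries 135. Over 112 named genes and 1784 refitted values no called sign reversed, 144 lost the call and 366 gained it. List medians moved by more than the spread between libraries in 23 of 225 values. Same-numbered libraries did not deviate together (correlations of -0.071, 0.11 and 0.19 for T, A and B), so the letter was not taken as a pairing. At this depth and spread, the smallest changes called were 0.35 and -0.34 on the log2 scale.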
